A study of Rattus norvegicus with 12 samples.

Results

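The urea cycle and ammonia handling genes were followed by RNA sequencing in regenerating rat liver. The set was defined by name as 10 genes, CPS1, OTC, ASS1, ASL, ARG1, NAGS, SLC25A15, GLS2, GLUL and OAT, and its rows were read from a table of 14692 listed genes. Of the 10 genes, 9 were found, and all 9 averaged 1 RPKM or more over the columns, as did 8459 genes of the whole table. GLUL, which encodes glutamine synthetase, was not found by name and was not analysed here. RPKM is the number of reads on a gene, divided by the length of its transcript and by the size of the library, so levels of different genes can be set side by side.

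Whole livers of male Sprague Dawley rats, 4 to 5 months old, were collected 0, 4, 12 and 24 h after partial hepatectomy (PH), the surgical removal of most of the liver. Control rats carried a sham biliary fistula, BF rats a biliary fistula that drained the bile for 24 h before PH, and BA rats a fistula together with sodium taurocholate, a bile acid, infused into the duodenum from 12 h before PH. All rats, the Control rats included, had a duodenal catheter and a continuous saline infusion, and no group was left without surgery. The names BF and BA follow the sample titles, whereas the sample descriptions give these treatments the other way round, so every statement on BF or BA is about the columns titled in this way. Each of the 12 columns stands for 4 rats, since the authors averaged a run on a single liver (1 rat) with a run on RNA pooled from 3 others. No spread between rats and no read depth could therefore be read from the table, and a difference between a pair of columns has no replicate check.

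Ammonia from amino acid breakdown is toxic, and the liver turns it into urea. Inside the mitochondria NAGS makes the activator of CPS1, CPS1 makes carbamoyl phosphate from ammonia, and OTC joins this to ornithine, which the carrier SLC25A15 brings in from the cytosol. In the cytosol ASS1 and ASL build and split argininosuccinate, and ARG1 releases urea from arginine and returns ornithine. GLS2, the liver type glutaminase, frees ammonia from glutamine beside the cycle, and OAT, ornithine aminotransferase, takes ornithine out of it. The cycle enzymes and GLS2 are known for their place in hepatocytes around the portal tract, while GLUL and OAT are known from those around the central vein. In RNA of whole liver, fewer cells of a type and less RNA per cell cannot be told apart.

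The promoters of 4 genes are shown because the changes below turned on them. SLC25A15 and ASL rose most at 4 h, and OTC and GLS2 were among the genes that fell at 12 h. The windows span 250 bases before to 50 after the gene start, in RefSeq for the rat build GRCr8, which is not the build of the deposited data. Windows were listed for 8 of the 9 genes, 9 windows in all, with 2 for Gls2, of which 1 is printed. Sequences are written 5′ to 3′ on the strand of the gene, and capitals mark matches to motifs searched on both strands. The windows are Slc25a15 at chr16:76336620-76336919 on the plus strand, Asl at chr12:32295658-32295957 on the plus strand, Otc at chrX:15202424-15202723 on the minus strand and Gls2 at chr7:1201629-1201928 on the plus strand.
Slc25a15: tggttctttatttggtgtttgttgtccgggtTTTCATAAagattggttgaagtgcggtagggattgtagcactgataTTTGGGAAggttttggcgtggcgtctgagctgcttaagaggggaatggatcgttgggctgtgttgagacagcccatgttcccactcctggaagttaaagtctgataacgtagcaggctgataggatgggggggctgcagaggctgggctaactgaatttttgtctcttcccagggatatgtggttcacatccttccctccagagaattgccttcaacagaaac
Asl: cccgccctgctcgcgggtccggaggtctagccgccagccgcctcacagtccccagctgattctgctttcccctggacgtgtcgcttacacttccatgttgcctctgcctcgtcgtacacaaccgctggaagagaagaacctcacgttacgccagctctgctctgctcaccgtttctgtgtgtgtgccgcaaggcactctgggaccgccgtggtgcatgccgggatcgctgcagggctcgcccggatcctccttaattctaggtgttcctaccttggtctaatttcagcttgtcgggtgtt
Otc: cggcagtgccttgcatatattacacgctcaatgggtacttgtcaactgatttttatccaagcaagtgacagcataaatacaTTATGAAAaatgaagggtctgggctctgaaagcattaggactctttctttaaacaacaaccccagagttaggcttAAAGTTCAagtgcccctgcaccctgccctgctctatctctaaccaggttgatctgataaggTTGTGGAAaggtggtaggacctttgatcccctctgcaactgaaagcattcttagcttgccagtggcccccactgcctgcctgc
Gls2: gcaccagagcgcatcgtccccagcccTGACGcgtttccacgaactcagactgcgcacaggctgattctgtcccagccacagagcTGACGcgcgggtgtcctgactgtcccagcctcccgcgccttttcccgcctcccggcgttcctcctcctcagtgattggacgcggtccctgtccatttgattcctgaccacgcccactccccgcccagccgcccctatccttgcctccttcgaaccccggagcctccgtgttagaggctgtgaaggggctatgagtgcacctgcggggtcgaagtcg

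The motif letters searched were TTNNGNAA for C/EBP, AAAGTNCA for HNF4, TGACG for the core of the cAMP response element and TGTTCT for the glucocorticoid response element. TTNNGNAA stood in the windows of Oat, Otc and Slc25a15 and in 41.3% of all 33469 windows of the same length. AAAGTNCA stood in those of Cps1 and Otc and in 4.57% of all windows. TGACG stood in those of Gls2, Nags and Oat and in 21.2% of all windows. TGTTCT stood in none of the 9 windows and in 20.7% of all windows. The capitals in Slc25a15 are 2 matches to TTNNGNAA, those in Otc are 2 matches to TTNNGNAA with 1 match to AAAGTNCA between them, and those in Gls2 are 2 matches to TGACG. The Asl window held no match. No match overlapped another, and a match to a few letters describes the sequence and does not show a binding site.

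The 9 genes ranged from moderately to very highly expressed. CPS1 had the highest mean level over the 12 columns, 1291 RPKM ± 450 (SD, 12 columns), and stood at rank 56 of the 8459 genes. ARG1 at 1102 ± 283 and ASS1 at 1025 ± 454 RPKM followed. SLC25A15 at 314 ± 199, ASL at 307 ± 138 and OTC at 244 ± 141 RPKM formed the middle of the order. OAT at 154 ± 69.4, GLS2 at 92.4 ± 46.6 and NAGS at 42.5 ± 10.1 RPKM were lowest. The ranges of neighbours in this order overlapped in every case, but the genes share the same columns. Column by column, ASS1 lay above SLC25A15 and OTC above OAT in all 12 columns. The other neighbours did not keep their order in every column. SLC25A15 varied most, with a highest value 8.98 times its lowest, and NAGS varied least, with 2.08 times.

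Together the 9 genes took between 0.313% and 0.934% of the summed RPKM of a column. In Control the share was 0.723% at 0 h, 0.934% at 4 h, 0.559% at 12 h and 0.708% at 24 h. In BA it was 0.406%, 0.462%, 0.397% and 0.519% at the same timepoints. In BF it was 0.467%, 0.915%, 0.313% and 0.790%. The share was highest at 4 h in Control and BF and lowest at 12 h in all 3 groups, and BA stayed below Control at all 4 timepoints. In the BA column at 4 h ALB, the albumin gene, stood at 303637 RPKM, 30.9% of the column total, against 5.60% to 13.4% elsewhere. The summed level of the 9 genes in that column was 4540 RPKM, against 6841 RPKM in Control and 7003 RPKM in BF. Within BA this sum was 3125, 4540, 2891 and 3969 RPKM at 0, 4, 12 and 24 h. By summed RPKM, unlike by share, BA was thus also highest at 4 h.

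**Figure D1:**
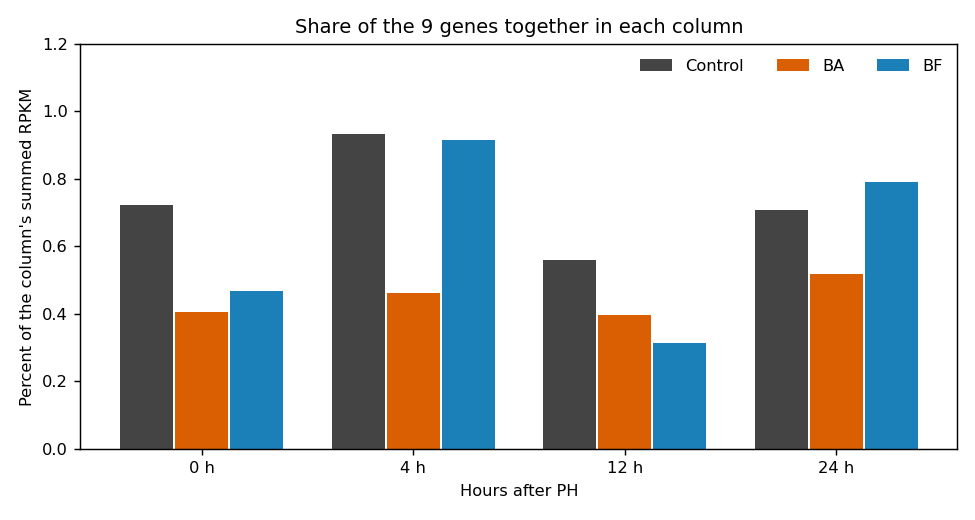
Percent of the summed RPKM of each column that fell on the 9 genes, by hours after PH, with 1 bar for each of Control, BA and BF and no error bars because each bar is 1 deposited column. The bars peak at 0.934% in Control at 4 h and are lowest at 0.313% in BF at 12 h.

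The columns were not all alike, in ways that touch the results. The column totals lay between 727435 and 785092 RPKM except for BA at 4 h, at 982826, which came to 679188 without ALB, within the 645657 to 703408 of all columns without ALB. The BF column at 12 h held transcripts of pancreatic acinar cells. The 8 acinar markers found summed to 138 RPKM there and to at most 23.2 RPKM in any other column, and 7 of the 8 were highest there. In Control at 0 h the hepatocyte marker FGB was at 4764 RPKM, against 10930 to 32075 RPKM elsewhere. Leukocyte markers summed to 9.20 RPKM in Control at 0 h and to 26.2 to 65.8 RPKM elsewhere. Control at 0 h also held the highest values of OTC, GLS2 and OAT. Of 9 hepatocyte markers 8 were found, with sums from 111000 to 373000 RPKM, the highest in BA at 4 h. Marker sums of other liver cells ranged from 7.91 to 19.9 RPKM for cholangiocytes, 159 to 259 for Kupffer cells, 38.6 to 63.3 for endothelial cells, 16.6 to 38.4 for stellate cells and 9.20 to 65.8 for leukocytes. A listed gene counts as found here, and in the lists below, only if it was above 0 in at least 1 column. The counts of members and the named genes are given without BA at 4 h or BF at 12 h where a call changed. Control at 0 h was left out only together with other columns of its group or timepoint. The part of these transcripts in the results was not tested.

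The timepoints were compared with limma on log2(RPKM + 1), in an additive model of time and group over all 12 columns, with p-values adjusted by Benjamini-Hochberg over the 8459 genes. The 3 groups serve as blocks, so that the p-values measure only how far the groups disagree about a change, not the spread between rats. Genes with an adjusted p under 0.05 are said to rise or fall, and fold changes understate changes of genes near 1 RPKM. The comparisons of 4, 12 and 24 h with 0 h share the same 3 columns at 0 h. The direction of calls over all genes depended on the scale of the columns. With the deposited values, 28.4% of the calls at 4 h, 28.7% at 12 h and 84.7% at 24 h were increases over 0 h. After each column was rescaled to the same median gene these shares were 42.7%, 49.9% and 35.3%, and after rescaling to the same total without the 10 most abundant genes they were 41.5%, 63.3% and 88.4%. The median log2 fold change of all genes from 0 h was -0.20, -0.12 and 0.21 at 4, 12 and 24 h in the deposited values. After the median rescaling it was -0.07, 0.01 and -0.10.

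At 4 h after PH the genes for the ornithine carrier and argininosuccinate lyase had risen in every group. SLC25A15 was at 238, 747, 143 and 384 RPKM in Control at 0, 4, 12 and 24 h, at 225, 356, 83.2 and 317 RPKM in BA, and at 231, 622, 103 and 320 RPKM in BF. Its 3 values at 0 h lay close together, the 3 at 4 h all above them and the 3 at 12 h all below. The fitted change at 4 h was 1.25 ± 0.19 on the log2 scale (SE; limma adjusted p = 0.00113), a 2.37-fold rise seen in 3 of 3 groups. ASL was at 198, 455, 227 and 302 RPKM in Control, at 175, 464, 141 and 319 RPKM in BA, and at 247, 579, 183 and 394 RPKM in BF over the same timepoints. Its 4 h values did not overlap with those of any other timepoint. It rose by 1.27 ± 0.16 on the log2 scale (SE; limma adjusted p = 0.000589), or 2.41-fold, again in 3 of 3 groups. Among all genes, 12.9% rose and 32.4% fell at 4 h.

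NAGS fell at 4 h in the fit, but not in each group. It was at 42.1, 43.3, 40.2 and 58.2 RPKM in Control at 0, 4, 12 and 24 h, at 57.6, 28.0, 31.7 and 39.3 RPKM in BA, and at 49.9, 29.9, 38.3 and 51.2 RPKM in BF. BA and BF were lower at 4 h than at 0 h, and Control was not. The fitted change was -0.57 ± 0.19 (SE, log2; limma adjusted p = 0.0342). Without the BA column at 4 h it was -0.50 and no longer passed (limma adjusted p = 0.116), nor did it after rescaling to the median gene (-0.44, limma adjusted p = 0.0774). The other 6 genes did not pass at 4 h, with estimates from -0.34 for OTC to 0.77 for ASS1. The median of the 9 estimates was 0.45, beside -0.20 for all genes tested. After rescaling to the median gene, ASS1 (0.89), CPS1 (0.73) and ARG1 (0.57) passed as well and NAGS did not, 5 genes in all with SLC25A15 (1.37) and ASL (1.40). Without the BF column at 12 h, ASS1 (0.77) and CPS1 (0.61) passed beside SLC25A15, ASL and NAGS, also 5 in all.

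At 12 h the ornithine carrier had turned from its 4 h peak to below its level at 0 h, and OTC and GLS2 were low with it. SLC25A15 was lower than at 0 h by -1.11 ± 0.19 (SE, log2; limma adjusted p = 0.00317), 2.15-fold, in 3 of 3 groups. OTC, the partner enzyme that uses the imported ornithine, was at 617, 395, 162 and 248 RPKM in Control at 0, 4, 12 and 24 h, at 207, 204, 134 and 142 RPKM in BA, and at 266, 207, 93.2 and 256 RPKM in BF. Control at 0 h stood well above all other columns, and the lowest value within each group was that at 12 h. The fitted change of OTC at 12 h was -1.35 ± 0.27 (SE, log2; limma adjusted p = 0.00645), 2.55-fold. GLS2 was at 183, 158, 72.3 and 63.6 RPKM in Control, at 76.0, 80.2, 38.4 and 64.3 RPKM in BA, and at 129, 131, 38.0 and 75.8 RPKM in BF. It differed little between 0 and 4 h within each group, and its 3 values at 12 h lay below all of those at 0 and 4 h. It fell by 1.34 ± 0.24 on the log2 scale (SE; limma adjusted p = 0.00375), 2.54-fold. At 12 h 9.03% of all genes rose and 22.5% fell.

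The other 6 genes did not pass between 12 and 0 h, with estimates from -0.81 for OAT to -0.03 for CPS1. All 9 estimates were below 0, as were 5240 of the 8459 genes, with a median of -0.43 beside -0.12 for all genes tested. The estimate for CPS1 was above 0 after both rescalings (0.10 and 0.22) and without the BF column at 12 h (0.30), and that for ASL was 0.06 after the rescaling to the same total. The 3 genes that fell did so also after rescaling to the median gene, by -0.98 for SLC25A15, -1.22 for OTC and -1.21 for GLS2, and without the BF column at 12 h, by -1.06, -1.18 and -1.12. OTC did not pass without the Control columns (limma adjusted p = 0.0736), nor did GLS2 without the BF columns (limma adjusted p = 0.0577).

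By 24 h ASL and SLC25A15 lay above their 0 h levels again while GLS2 remained low. ASL was higher than at 0 h by 0.71 ± 0.16 (SE, log2; limma adjusted p = 0.00873), or 1.64-fold, and SLC25A15 by 0.55 ± 0.19 (limma adjusted p = 0.0441), or 1.47-fold, both in 3 of 3 groups. GLS2 was lower by -0.84 ± 0.24 (SE, log2; limma adjusted p = 0.0227), 1.78-fold, also in 3 of 3 groups. The log2 ratio was -1.51 in Control, -0.24 in BA and -0.76 in BF. Without the Control columns GLS2 was at -0.50 and did not pass (limma adjusted p = 0.163), nor did it without the BF columns. Of all genes, 30.6% rose and 5.54% fell at 24 h, and the median estimate of the 9 genes, 0.20, was close to the 0.21 of all genes. The 2 increases depended on the scale. After rescaling to the median gene ASL was at 0.40 (limma adjusted p = 0.124) and SLC25A15 at 0.24 (limma adjusted p = 0.33), neither passing, while GLS2 was at -1.14 and OTC at -0.94, both called. After rescaling to the same total ASL was at 0.78 (limma adjusted p = 0.00614) and SLC25A15 at 0.62 (limma adjusted p = 0.0271). Without the BF column at 12 h, SLC25A15 did not pass (limma adjusted p = 0.0567) and CPS1 did, at 0.67 (limma adjusted p = 0.0299).

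**Figure D2:**
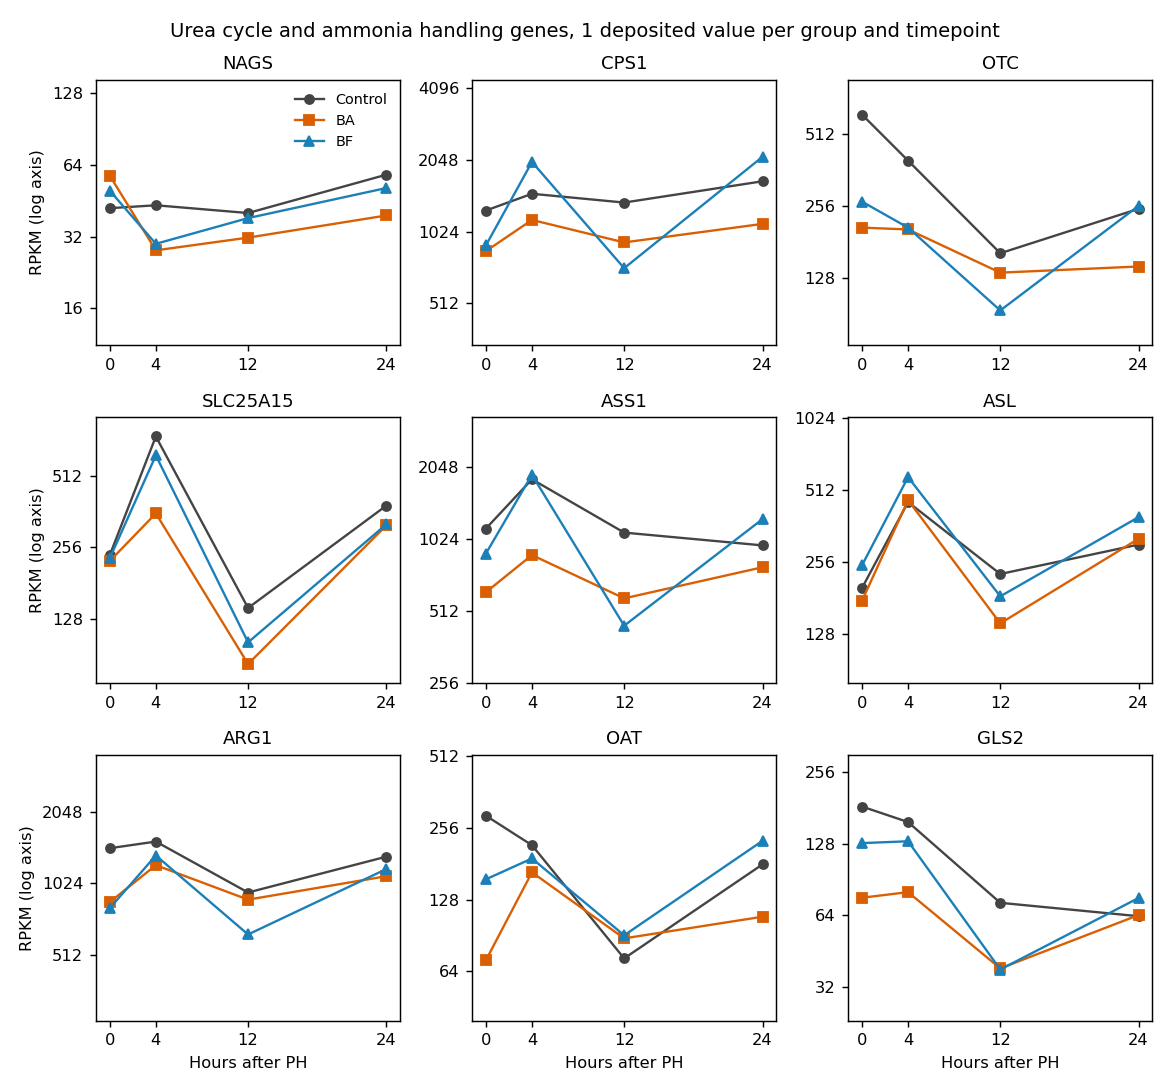
Level of each of the 9 genes in RPKM on a log axis against hours after PH, with 1 point for each of Control, BA and BF at each timepoint and every panel spanning the same number of doublings. The panels of SLC25A15 and ASL share a peak at 4 h and a trough at 12 h, with SLC25A15 going from 747 to 143 RPKM in Control, and NAGS stays between 28.0 and 58.2 RPKM.

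**Figure D3:**
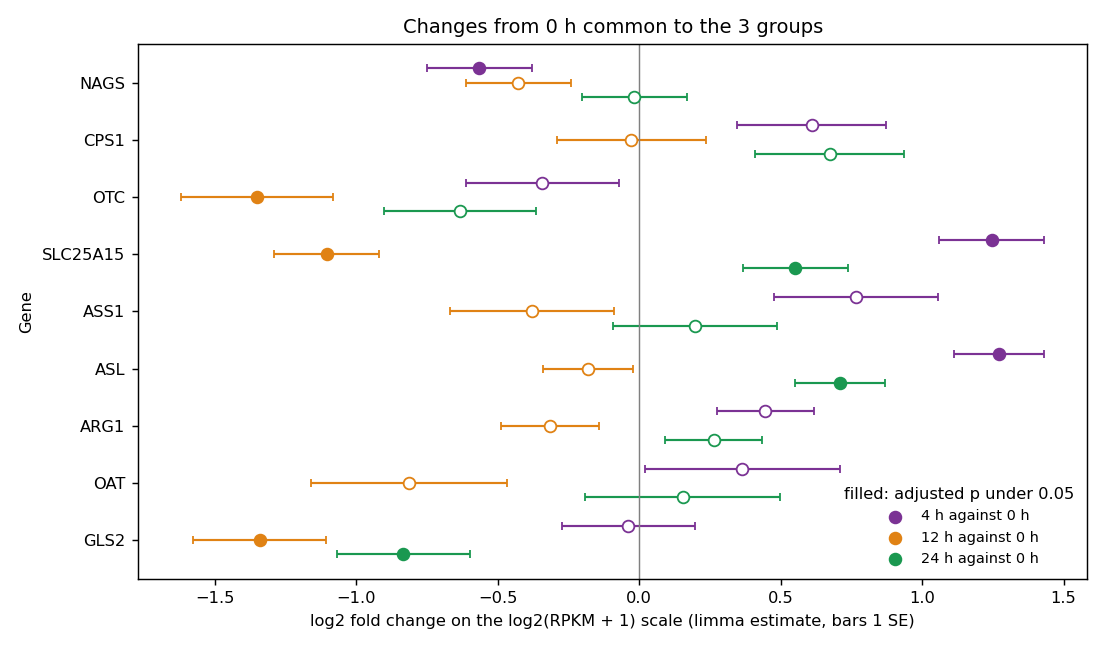
Log2 fold change from 0 h fitted over the 3 groups for each gene at 4, 12 and 24 h, with bars of 1 SE and filled points where the limma adjusted p was under 0.05. SLC25A15 and ASL lie farthest to the right at 4 h, at 1.25 and 1.27, and OTC and GLS2 farthest to the left at 12 h, at -1.35 and -1.34.

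The comparison of successive timepoints was added after the data had been examined. Between 4 and 12 h, 7 of the 9 genes fell, where 12.0% of all genes fell and 13.9% rose. SLC25A15 fell by 2.35 ± 0.19 on the log2 scale (SE; limma adjusted p = 0.0012), 5.10-fold, and ASL by 1.45 ± 0.16 (limma adjusted p = 0.00161), 2.74-fold. GLS2 fell by 1.31 (limma adjusted p = 0.0072), OAT by 1.18 (limma adjusted p = 0.035), ASS1 by 1.15 (limma adjusted p = 0.0212), OTC by 1.01 (limma adjusted p = 0.0262) and ARG1 by 0.76 (limma adjusted p = 0.0146). CPS1 at -0.64 and NAGS at 0.14 did not pass, and the median of the 9 was -1.15, beside 0.06 for all genes. After rescaling to the median gene all 7 passed, with SLC25A15 at -2.35 and ARG1 at -0.76. The count was lower when single columns were left out, as was that of all genes. Without the BF column at 12 h, SLC25A15 (-2.31), ASL (-1.34), GLS2 (-1.09) and ASS1 (-0.74) fell, 4 in all, and without the BA column at 4 h, 5 did, OTC (limma adjusted p = 0.0833) and OAT (limma adjusted p = 0.13) no longer passing. Of all genes, 663 and 624 fell in these settings, against 1014 in the main fit. At an unadjusted limma p under 0.05, 7 of the 9 members passed in each, against 8 in the main fit.

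ASS1, which makes argininosuccinate, was at 1130, 1818, 1087 and 961 RPKM in Control at 0, 4, 12 and 24 h, at 611, 876, 576 and 778 RPKM in BA, and at 887, 1899, 443 and 1238 RPKM in BF. The step from 4 to 12 h was largest in BF, where the column with the acinar transcripts holds the lowest ASS1 value of all. ARG1, the arginase of the cycle, was at 1437, 1533, 938 and 1325 RPKM in Control, at 854, 1220, 875 and 1097 RPKM in BA, and at 806, 1340, 625 and 1176 RPKM in BF. Each of the 3 groups had its highest ARG1 value at 4 h, and Control was above BA and BF at every timepoint. CPS1 was at 1255, 1475, 1355 and 1664 RPKM in Control, at 848, 1146, 923 and 1103 RPKM in BA, and at 896, 2005, 719 and 2107 RPKM in BF. CPS1 moved little in Control and BA, and the values in BF at 4 and 24 h were the highest and that at 12 h the lowest of all columns.

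Between 12 and 24 h, 4 of the 9 genes rose, where 43.6% of all genes rose and 1.8% fell. SLC25A15 rose by 1.66 ± 0.19 on the log2 scale (SE; limma adjusted p = 0.000381), ASL by 0.89 ± 0.16 (limma adjusted p = 0.00303), OAT by 0.97 (limma adjusted p = 0.0455) and ARG1 by 0.58 (limma adjusted p = 0.0237). The other 5 estimates were between 0.41 for NAGS and 0.72 for OTC. The share of members that rose, 4 of 9, was near that of all genes, and the median log2 fold change of all genes was 0.33. Increases were 96.0% of all calls in the deposited values, 36.2% after rescaling to the median gene and 88.4% after rescaling to the same total. After the median rescaling SLC25A15 alone of the 9 passed, at 1.22 (limma adjusted p = 0.00262). When the BF column at 12 h was left out 2 genes rose, SLC25A15 (1.61) and ASL (0.78).

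OAT, which drains ornithine towards glutamate and proline, differed between groups in its change from 0 h, although it fell from 4 to 12 h and rose from 12 to 24 h in 3 of 3 groups. It was at 288, 216, 72.6 and 180 RPKM in Control at 0, 4, 12 and 24 h, at 71.2, 167, 88.1 and 109 RPKM in BA, and at 156, 190, 90.7 and 226 RPKM in BF. At 0 h the Control value was 4.04 times that of BA, whereas at 12 h the 3 groups lay between 72.6 and 90.7 RPKM. No comparison with 0 h passed for OAT, with limma adjusted p = 0.41 at 4 h, 0.101 at 12 h and 0.754 at 24 h.

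Ratios between members of neighbouring steps varied with time, and not all had a course common to the groups. The ratio of CPS1 to OTC in RPKM was 2.03, 3.73, 8.38 and 6.70 in Control at 0, 4, 12 and 24 h, 4.09, 5.63, 6.88 and 7.75 in BA, and 3.36, 9.68, 7.72 and 8.24 in BF. It was lowest at 0 h in every group. The ratio of OTC to SLC25A15 was 2.59, 0.529, 1.13 and 0.648 in Control, 0.922, 0.572, 1.61 and 0.449 in BA, and 1.15, 0.333, 0.909 and 0.798 in BF. OTC transcripts thus outnumbered those of the carrier per length in Control and BF at 0 h and in Control and BA at 12 h, and were fewer in all groups at 4 and 24 h. The ratio of ASS1 to ASL was lowest at 24 h in Control (3.18), at 4 h in BA (1.89) and at 12 h in BF (2.42). That of ARG1 to OAT was highest at 12 h in Control (12.9), at 0 h in BA (12.0) and at 4 h in BF (7.04). All of these ratios do not depend on the scale of a column and carry no test.

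The groups were then compared with the 4 timepoints as blocks, which asks whether biliary drainage, with or without bile acid infusion, went with another level of these genes. No member passed between any of the groups. In BF against Control 0 of 9 genes passed (0.804% of all genes did, in either direction), in BA against Control 0 of 9 (0.0709% of all genes), and in BF against BA 0 of 9 (0.0118% of all genes). At an unadjusted limma p under 0.05 the counts were 2, 7 and 1 of 9, where 21.9%, 22.7% and 7.81% of all genes were. The 7 in BA against Control became 4 after either rescaling and 5 without the BA column at 4 h, and without the BF column at 12 h the 3 counts were 1, 6 and 4. Over the 12 alternatives computed for each comparison no member passed either, and the lowest limma adjusted p were 0.107, 0.0965 and 0.559. These alternatives include the exchange of the names BF and BA, which only relabels the main fit. The 0.107 in BF against Control equals the main limma adjusted p of OTC in BA against Control. The exchange is therefore no further check. It swaps the comparisons with Control, with their counts, and reverses the sign of BF against BA.

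BA lay below Control in all 9 estimates, as it did for 6634 of the 8459 genes, with a median of -0.55 beside -0.14 for all genes tested. The estimates were largest in size for OTC at -0.90 ± 0.23 (SE, log2; limma adjusted p = 0.107), ASS1 at -0.79 ± 0.25 (limma adjusted p = 0.144), GLS2 at -0.78 ± 0.20 (limma adjusted p = 0.11) and OAT at -0.71 ± 0.30 (limma adjusted p = 0.207). The smallest was that of ASL, at -0.19 ± 0.14 (limma adjusted p = 0.413). CPS1, OTC, ASS1, ARG1 and SLC25A15 were lower in BA than in Control at all 4 timepoints, 5 of the 9 genes, where 28.9% of all genes were. At 0 h, before regeneration, OTC, OAT and GLS2 were more than 2-fold lower in BA than in Control, with log2 ratios of -1.57, -2.00 and -1.26, where 2.15% of all genes were. These are single columns without a replicate check.

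The BF estimates against Control were averages over timepoints that in part went opposite ways, as for CPS1, with log2 ratios of 0.44 at 4 h and -0.91 at 12 h. The median estimate of BF against Control was -0.26, beside -0.11 for all genes, and 8 of 9 were below 0, as were 6163 of the 8459 genes. OTC at -0.72 ± 0.23 (SE, log2; limma adjusted p = 0.14) and ARG1 at -0.45 ± 0.15 (limma adjusted p = 0.148) were the largest in size. ARG1 and SLC25A15 were lower in BF than in Control at all 4 timepoints, 2 of 9 genes, where 27.3% of all genes were. At 0 h OTC was more than 2-fold lower in BF than in Control, with a log2 ratio of -1.21, 1 of 9 genes, where 2.16% of all genes were. In BF against BA 8 of the 9 estimates were above 0, as were 4914 of the 8459 genes, with a median of 0.37 beside 0.03 for all genes. ASL, SLC25A15 and OAT were higher in BF than in BA at all 4 timepoints, 3 of 9, where 10.2% of all genes were. The 2 comparisons with Control share the 4 Control columns. Without the BF column at 12 h the estimates of BF against Control for CPS1 and ASS1 were 0.09 and 0.01 in place of -0.15 and -0.30.

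**Figure D4:**
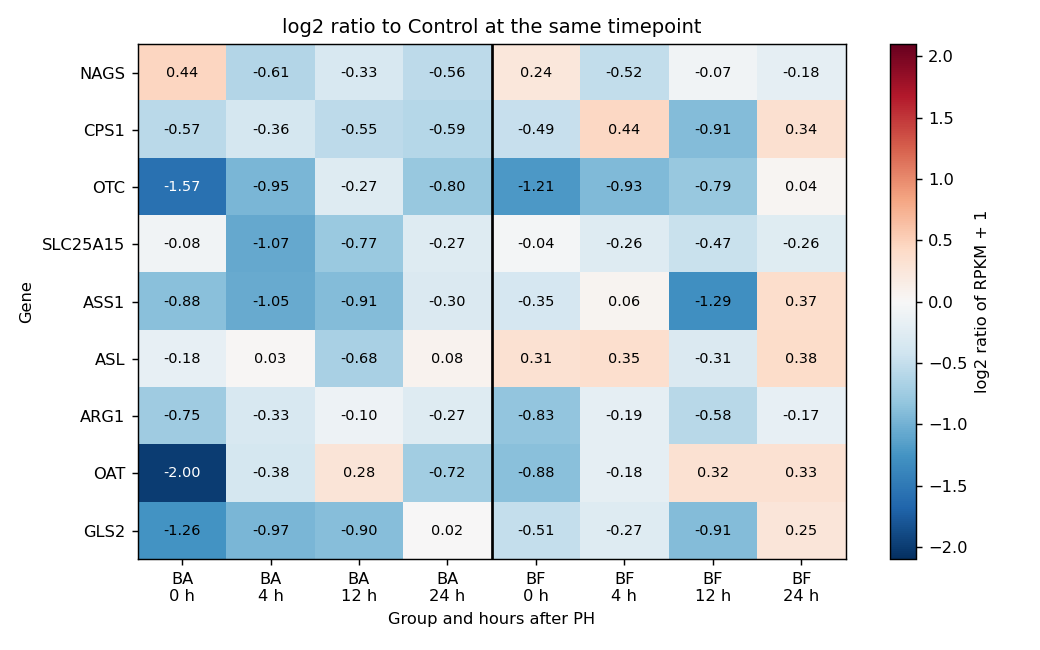
Log2 ratio of RPKM + 1 to Control at the same timepoint for each of the 9 genes, in BA on the left and BF on the right, at 0, 4, 12 and 24 h, with the value printed in each cell and blue for lower than Control. Most BA cells are blue, down to -2.00 for OAT at 0 h, and the BF cells are mixed, from -1.29 for ASS1 at 12 h to 0.44 for CPS1 at 4 h.

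Genes around the cycle were read from a list of 47 names for ammonia, glutamine, glutamate, ornithine and arginine transport and use, of which 42 were found and 35 averaged 1 RPKM or more. Against 0 h, 11 of the 35 rose and 10 fell at 4 h, 7 rose and 9 fell at 12 h, and 14 rose and 4 fell at 24 h. Beside them, 12.9% of all genes rose and 32.4% fell at 4 h, 9.03% and 22.5% at 12 h, and 30.6% and 5.54% at 24 h. The median estimates of the 35 were 0.09, -0.10 and 0.35. After rescaling to the median gene 4 of the 35 rose and 5 fell at 24 h. GOT1, the cytosolic aspartate aminotransferase that can supply the aspartate used by ASS1, changed most. It was at 96.0 RPKM at 0 h and 966 RPKM at 4 h in Control, at 78.9 and 769 RPKM in BA, and at 104 and 1139 RPKM in BF. The rise of 3.34 ± 0.33 (SE, log2; limma adjusted p = 0.000299) was 10.1-fold. The basic amino acid carrier SLC25A29 rose at 4 h by 2.76 ± 0.37 (limma adjusted p = 0.000787), the amino acid transporter SLC38A2 by 2.49 ± 0.25 (limma adjusted p = 0.000304) and the polyamine acetylating enzyme SAT1 by 1.88 ± 0.59 (limma adjusted p = 0.0273). SAT1 was at 924 RPKM in BA at 4 h and at most 126 RPKM in the other 11 columns, and without that column its rise was 0.89 (limma adjusted p = 0.0142). SAT1 did not pass with every gene above 0 tested (limma adjusted p = 0.0512) or without the BF columns (limma adjusted p = 0.0591). PRODH, the proline oxidase, was lower at 12 h than at 0 h by -2.00 ± 0.25 (limma adjusted p = 0.00111).

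Between groups, 2 of the 35 neighbouring genes passed in BF against Control and none in the other comparisons, where 11 (BA against Control) and 7 (BF against BA) had an unadjusted limma p under 0.05, beside 22.7% and 7.81% of all genes. GLUD1, the glutamate dehydrogenase that frees ammonia from glutamate, was at 501, 403, 357 and 518 RPKM in Control at 0, 4, 12 and 24 h and at 222, 215, 277 and 315 RPKM in BF. It was lower in BF at 4 of 4 timepoints, by -0.79 ± 0.14 (SE, log2; limma adjusted p = 0.0481). In BA it was at 272, 206, 302 and 325 RPKM. AQP9, a liver channel for water, glycerol and urea, was at 170, 97.1, 121 and 222 RPKM in Control and at 229, 170, 201 and 318 RPKM in BF, higher in BF at 4 of 4 timepoints, by 0.62 ± 0.10 (limma adjusted p = 0.035). Neither passed without the BF column at 12 h (limma adjusted p = 0.0856 for GLUD1 and 0.107 for AQP9), nor did GLUD1 without the BA column at 4 h (limma adjusted p = 0.0538). With every gene above 0 tested, neither passed (limma adjusted p = 0.0814 and 0.0669). After the median and total rescalings GLUD1 did not pass (limma adjusted p = 0.0503 and 0.0515), but AQP9 did. Without the columns at 0, 4 or 24 h neither passed, and without those at 12 h GLUD1 alone did. Exchanging the names BF and BA is no further check, since it only puts the main BA against Control in place of BF against Control. There GLUD1 was at -0.69 and AQP9 at 0.11 (limma adjusted p = 0.0841 and 0.498).

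Of 22 regulators of the cycle and of liver zones, 20 were found and 19 tested. At 4 h 2 rose and 7 fell, at 12 h 0 rose and 7 fell, and at 24 h 3 rose and 3 fell. Of all genes, 12.9% rose and 32.4% fell at 4 h, 9.03% and 22.5% at 12 h, and 30.6% and 5.54% at 24 h. No regulator passed between groups, where 2, 3 and 2 had an unadjusted limma p under 0.05 in BF against Control, BA against Control and BF against BA, beside 21.9%, 22.7% and 7.81% of all genes. PPARA alone of the 19 passed in BF against Control, as lower, when the BF column at 12 h was left out. After rescaling to the same total, 2 rather than 7 fell at 12 h. CEBPA, a C/EBP factor known to act on urea cycle genes, was at 111, 35.4, 37.5 and 60.8 RPKM in Control at 0, 4, 12 and 24 h, at 87.6, 30.5, 26.1 and 59.6 RPKM in BA, and at 79.8, 30.8, 37.7 and 56.7 RPKM in BF. It fell by 1.49 ± 0.14 on the log2 scale at 4 h (SE; limma adjusted p = 0.000266), in 3 of 3 groups. PPARGC1A, a coactivator of fasting genes, rose at 4 h by 1.87 ± 0.25 (limma adjusted p = 0.000726), from 0.74 to 1.42 RPKM at 0 h to 4.35 to 10.4 RPKM at 4 h. RNF43, a target and inhibitor of Wnt signalling, fell at 4 h by 1.62 ± 0.19 (limma adjusted p = 0.00052) and FOXA2, a liver transcription factor, by 1.60 ± 0.38 (limma adjusted p = 0.00822). PPARA, the fatty acid receptor, fell at 12 h by 1.68 ± 0.50 (limma adjusted p = 0.0315), although BF was at 11.5 RPKM at 0 h and 11.8 RPKM at 12 h. It did not pass after rescaling to the same total (limma adjusted p = 0.0505) or with every gene above 0 tested (limma adjusted p = 0.058). Nor did it without the Control columns (limma adjusted p = 0.256) or the BA columns (limma adjusted p = 0.206). FOXA2 did not pass without the BA columns (limma adjusted p = 0.054).

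Zone markers outside the set moved beside the members. The counts below stand beside 12.9% of all genes rising and 32.4% falling at 4 h. These shares were 9.03% and 22.5% at 12 h, and 30.6% and 5.54% at 24 h. Of 7 periportal markers 1 rose and 2 fell at 4 h, 0 rose and 5 fell at 12 h, and 1 rose and 0 fell at 24 h against 0 h. Their summed level was 1230 to 2130 RPKM at 0 h, 1630 to 2640 at 4 h, 801 to 1090 at 12 h and 1310 to 1890 at 24 h. Of 10 pericentral markers tested, out of 11 found, 0 rose and 6 fell at 4 h, 0 rose and 8 fell at 12 h, and 1 rose and 3 fell at 24 h. Their sums were 2780 to 4700, 2040 to 3300, 1450 to 1660 and 2560 to 3780 RPKM. Both sums were lowest at 12 h, but the markers did not share 1 course. The periportal sum is carried by PCK1 and the pericentral sum by CYP2E1, RGN and CYP1A2. CDH1, a periportal marker, and the pericentral markers AXIN2 and AVPR1A were higher at 12 h than at 4 h (0.92, 0.96 and 1.77 on the log2 scale, all called), and HAL was highest at 12 h in Control. Leaving out the BF column at 12 h, 3 periportal markers fell at 12 h, and 2 did after rescaling to the same total. Without the BA column at 4 h 3 pericentral markers fell at 4 h, as after rescaling to the median gene. The part of the marker bearing cells in the members' changes was not tested.

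Across the 12 columns most of the members varied together and NAGS did not. Pearson correlations of log2(RPKM + 1) lay between 0.25 and 0.88 for the 28 pairs without NAGS, with a median of 0.69, and between -0.24 and 0.31 for the 8 pairs with NAGS. The highest were ASL with SLC25A15 at 0.88, OTC with GLS2 at 0.87 and CPS1 with ASS1 at 0.84. The columns share timepoints, groups and the scale of each library, so these values are a description. Among 4469 genes outside the set that averaged 10 RPKM or more, those most like CPS1 over the 12 columns were CSTF2T (0.92), RGD1307161 (0.90), SELT (0.87), EIF3E (0.86) and VAPA (0.86). The same search for GLUL could not be made.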

How the data were processed

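Whole liver RNA of 3 groups at 4 timepoints was sequenced from poly(A) libraries. The authors deposited 1 table of RPKM values, each column the mean of 2 runs. Per the submitters' processing notes CASAVA and Bowtie 0.12.2 were used and the builds rn4 and mm8 were named, with no role given for either. RPKM divides by the library total, so a very abundant transcript lowers the values of the others. Read depth is unknown, so no counting interval is given.

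From these values, log2(RPKM + 1) of the 8459 genes averaging 1 RPKM or more was fitted with limma 3.58.1 (R 4.3.3, intensity trend, time + group, 6 residual degrees of freedom), with Benjamini-Hochberg adjustment over these genes and a threshold of 0.05. The script was tested on simulated data. Tables and plots used Python 3.11.15, numpy 2.4.6, pandas 2.3.3 and matplotlib 3.10.9. The members, the gene lists and the motifs were chosen with earlier results of these data known. Named were all members, the 5 genes most correlated with CPS1 and, of each of 2 lists, the 5 largest calls over time and between groups. GOT1 and the other named list genes follow this rule. Marker lists name cell types of liver and pancreas. The comparisons of successive timepoints, and leaving out the BA column at 4 h, were added after the data were examined, as were the alternatives for the gene lists. Promoters were taken from RefSeq, GRCr8, by symbol. Quantitative PCR, histology and serum data were not analysed here.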

Additional observations from a re-analysis of the deposited data

Results flagged for a closer look

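For 11 of the 27 pairs of a member and a timepoint, the change from 0 h had opposite signs in different groups. Each group has 1 column per timepoint, so these differences were not tested. Values are log2 ratios of RPKM + 1 to 0 h, and the span is the highest minus the lowest of the 3 groups.

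OAT differed most. At 12 h it was at -1.97 in Control, 0.30 in BA and -0.77 in BF, a span of 2.27. At 4 h it was at -0.41, 1.21 and 0.29 in the same order (span 1.62), and at 24 h at -0.67, 0.60 and 0.53 (span 1.27). The 0 h values behind all of these, 288, 71.2 and 156 RPKM, were themselves far apart.

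NAGS at 4 h was at 0.04 in Control, -1.01 in BA and -0.72 in BF (span 1.05), and at 24 h at 0.46, -0.54 and 0.04 (span 1.00). ARG1 at 12 h was at -0.62, 0.04 and -0.37 (span 0.651) and at 24 h at -0.12, 0.36 and 0.54 (span 0.662). ASS1 at 24 h was at -0.23, 0.35 and 0.48 (span 0.713). ASL at 12 h was at 0.20, -0.31 and -0.43 (span 0.624). CPS1 at 12 h was at 0.11, 0.12 and -0.32 (span 0.438), the BF value coming from the column with acinar transcripts. GLS2 at 4 h was at -0.21, 0.08 and 0.03 (span 0.292). OTC and SLC25A15 had 1 sign in all 3 groups at each timepoint.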

How the results depend on the processing

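The number of members passing the limma threshold depended on single columns and on the scale, and so did the number of all genes passing. For 4 h against 0 h it was 3, with 5 after either rescaling or without the BF column at 12 h, 4 without a trend or without Control, and 2 with all genes above 0, without the BA column at 4 h, without BA or without BF. For 12 h against 0 h it was 3, with 2 to 4 under all alternatives. For 24 h against 0 h it was 3, but 1 without the Control columns and 0 without the BF columns (3 at an unadjusted limma p under 0.05). Without the BF columns 634 of all genes rose and 118 fell at 24 h, against 2587 and 469 in the main fit. For 12 h against 4 h the members passing were 7, but 4 without the BF column at 12 h, 3 without Control, 2 without BA and 2 without BF. At an unadjusted limma p under 0.05 they were 8, with 7, 8, 7 and 7 in these settings. Over all genes 1177 rose and 1014 fell there, but 110 and 144 without BA and 554 and 463 without BF. For 24 h against 12 h the members passing were 4, but 1 after the median rescaling and 2 after the total rescaling, without the BF column at 12 h or without the BF columns. Increases over all genes went from 3684 to 615, 1665, 2661 and 1755 in the same settings. The cause was not tested. SLC25A15 and ASL at 4 h and SLC25A15 at 12 h passed in 10 of 10 alternatives, OTC and GLS2 at 12 h in 9, NAGS at 4 h in 4, and ASL, SLC25A15 and GLS2 at 24 h in 7, 5 and 8. Each member that passed kept its sign in 10 of 10 alternatives. Of 774 values of single members under the alternatives, 39 changed sign, 51 no longer passed and 17 newly passed.

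The 39 changes of sign were all in values that passed in neither setting. Against 0 h they were GLS2 at 4 h (0.087 and 0.092 after the median and total rescaling, 0.068 without the BA column at 4 h, 0.051 without Control), OAT at 4 h (-0.060 without BA), CPS1 at 12 h (0.101 and 0.218 after the rescalings, 0.302 without the BF column at 12 h, 0.116 without BF), ASL at 12 h (0.062, total rescaling), ASS1 at 12 h (0.032 without the BF column at 12 h), ASS1, ARG1 and OAT at 24 h (-0.110, -0.046 and -0.156, median rescaling), OAT at 24 h (-0.071 without BA, -0.037 without BF) and NAGS at 24 h (0.050, total rescaling, and 0.247 without BA). NAGS from 12 to 24 h was -0.026 after the median rescaling. In BF against Control they were OAT (0.014, median rescaling, and 0.153 without 0 h), CPS1 (0.093 without the BF column at 12 h, 0.099 without 12 h) and ASS1 (0.006 and 0.027 likewise). In BF against BA they were ARG1 (0.006 without the BF column at 12 h, 0.050 without 12 h) and OTC (-0.045 without 24 h). Exchanging BF and BA only relabels the fit, so the changes of sign it gave were fixed in advance. With BF and BA exchanged, ASL was at -0.188 in BF and 0.183 in BA against Control, and BF against BA was at -0.365 for CPS1, -0.176 for OTC, -0.485 for ASS1, -0.371 for ASL, 0.083 for ARG1, -0.130 for NAGS, -0.289 for SLC25A15, -0.418 for GLS2 and -0.600 for OAT. The samples share no replicate numbers to pair by, and the groups or timepoints are the blocks of every fit.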
